A study of Mus musculus with 4 samples.

Results

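Ddit3, which encodes the transcription factor CHOP, was examined together with 9 further genes of the integrated stress response, Atf4, Atf3, Trib3, Chac1, Asns, Sesn2, Psat1, Phgdh and Slc7a11. They are 10 of the 24346 gene rows measured by RNA-seq in mBMSCs, the adherent stromal cells of mouse bone marrow, and each was found as the row that carries its symbol. The set was chosen by known membership of the pathway and by the measured FPKM of Ddit3, already seen to be lower in ZBP1-depleted cells, so the comparison of the groups is a description for these 10 genes and carries no test. The primary cells came from the femoral marrow of C57BL/6 mice of 3 months and were grown as adherent cultures after the nonadherent cells had been washed away. All samples received siRNA with Lipofectamine RNAiMAX, either a scrambled control (siScr, 2 samples) or siRNA directed at ZBP1 (siZBP1, 2 samples), and RNA was taken 72 h later. The siRNA against ZBP1 that was used for RNA-seq is not named in the sources used here. The methods call the samples duplicates without saying whether these were separate animals or cultures, so p-values measure only the spread between these samples, which may be technical.

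The integrated stress response is a translational control pathway shared by several stresses. The kinases PERK (Eif2ak3), GCN2 (Eif2ak4), PKR (Eif2ak2) and HRI (Eif2ak1) sense, in turn, ER stress, amino acid shortage, double-stranded RNA and heme shortage or mitochondrial stress, and phosphorylate the initiation factor eIF2. General translation is then reduced, while the mRNA of ATF4 is translated more, and ATF4 induces genes of amino acid synthesis, amino acid import and tRNA charging together with CHOP. CHOP acts with ATF4 on further targets and is best known for promoting cell death and restoring protein synthesis under lasting ER stress. In osteoblast-lineage cells ATF4 is a known regulator of late differentiation and of amino acid import for collagen synthesis. RNA-seq reports the transcripts of these genes and not the phosphorylation of eIF2 or the amount of ATF4 protein.

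Zbp1, the target of the siRNA, was measured at 86.0 and 62.0 FPKM in siScr cells and at 11.5 and 11.6 FPKM in siZBP1 cells (fragments counted on a transcript, scaled for its length and for the depth of the library). It fell by 2.56 on the log2 scale (SE 0.159, limma adjusted p = 0.00322). Stromal transcripts such as Col1a1, Col1a2, Pdgfrb and Prrx1 were present, but so were transcripts of macrophages. Some other stromal markers were low. Over all samples Lepr averaged 0.78 FPKM, Pdgfra 2.34, Thy1 2.57 and Vcam1 5.72, while Nt5e, Eng, Cxcl12 and Ly6a averaged 12.6 to 189 FPKM. The 10 macrophage markers summed to 6206 and 7132 FPKM in siScr and to 10261 and 9650 FPKM in siZBP1. All 10, and 34.7% of all tested genes, were higher in both siZBP1 samples than in both siScr samples. By limma 13.5% of all tested genes rose, and of the 10 macrophage markers 7 did. The largest part of their sums was Lyz2, at 2814 and 3647 FPKM in siScr and at 5871 and 5402 FPKM in siZBP1. The 12 mesenchymal markers summed to 5622 and 4693 FPKM in siScr and to 3230 and 3270 FPKM in siZBP1. Of the 11 tested, 5 fell, beside 14.8% of all tested genes, and 1, Nt5e, rose. Most of these sums was Col1a1 and Col1a2. Col1a1 was at 3066 and 2520 FPKM in siScr and at 1128 and 1191 FPKM in siZBP1, while the samples of the groups overlapped for Col1a2. Summed endothelial markers stayed between 3.62 and 4.36 FPKM. Adipocyte markers summed to 91.4 to 114 FPKM, nearly all of it Fabp4, with Plin1 and Cidec listed at 0. These levels moved with the differences below, and their part in them was not tested. In bulk RNA, fewer cells of a type and less RNA per cell cannot be told apart. Numbers of reads are not given, but the spacing of the lowest values puts the depth of the siScr samples at 1.4 and 1.86 times, and that of siZBP1 replicate 2 at 1.61 times, the depth of siZBP1 replicate 1.

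The promoters of the 10 genes are shown because ATF4, paired with a C/EBP protein, binds a composite element called the C/EBP-ATF response element, written TGATGNAA with N for any base. It was searched on both strands in RefSeq promoters of GRCm38.p6, from 250 bases before to 50 after the annotated start, and is held by 3.97% of 32851 such windows. All 10 genes were found in that set, Psat1 with 2 windows. The element was found in Asns, Trib3, Chac1, Atf3 and Slc7a11. The stretches around each match run 5′ to 3′ on the strand of the gene, with the element in capitals.
Asns, chr6:7693204-7693253, minus strand: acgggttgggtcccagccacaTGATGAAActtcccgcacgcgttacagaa
Trib3, chr2:152344018-152344067, minus strand: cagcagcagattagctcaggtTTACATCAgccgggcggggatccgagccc
Chac1, chr2:119351028-119351077, plus strand: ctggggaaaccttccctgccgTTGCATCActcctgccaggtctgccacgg
Atf3, chr1:191183415-191183464, minus strand: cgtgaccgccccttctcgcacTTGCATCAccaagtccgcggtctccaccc
Slc7a11, first match, chr3:50443651-50443700, minus strand: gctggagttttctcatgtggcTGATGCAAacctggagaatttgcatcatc
Slc7a11, second match, chr3:50443632-50443681, minus strand: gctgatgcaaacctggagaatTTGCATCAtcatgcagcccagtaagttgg
In Asns and the first Slc7a11 match the element reads forward, and in the others it lies on the opposite strand. The first base of the match is 23 bases before the start in Asns, 110 before it in Atf3 and 193 before it in Chac1. In Trib3 it is 14 bases after the start. In Slc7a11 the matches begin 66 and 47 bases before the start and do not overlap. The starts are those of RefSeq and can differ from the gene spans given below, which come from GENCODE. Against those spans the Asns match lies inside the gene and the Trib3 match before it. The Atf3 window belongs to a transcript that starts inside the span of the gene given below.

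No match to these letters was found in the windows of Ddit3, Atf4, Sesn2, Psat1 and Phgdh, which says nothing of elements outside them. The cAMP response element TGACGTCA, in 1.79% of all windows, was found in none of the 10 genes. The AP-1 element TGAGTCA, in 5.2% of all windows, was found only in Ddit3, on the opposite strand and 242 bases before the start. The Ddit3 window, on the plus strand of chr10:127290543-127290842, is given with that match in capitals.
Ddit3 promoter: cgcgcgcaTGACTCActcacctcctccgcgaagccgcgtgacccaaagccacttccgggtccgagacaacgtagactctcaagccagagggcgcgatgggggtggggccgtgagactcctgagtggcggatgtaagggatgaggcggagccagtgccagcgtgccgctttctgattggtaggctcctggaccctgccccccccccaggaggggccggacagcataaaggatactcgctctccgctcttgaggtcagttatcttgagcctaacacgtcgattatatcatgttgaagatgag
A match is a run of letters and not a measured binding site.

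Ddit3 was lower in ZBP1-depleted cells. CHOP is a bZIP transcription factor that is scarce in resting cells and is induced under stress. Its gene lies at chr10:127290774-127296288 on the plus strand (GENCODE M21, GRCm38), where a second, shorter gene record with the same symbol overlaps it, so the single FPKM row cannot separate them. The level was 77.7 and 61.4 FPKM in siScr and 34.0 and 33.2 FPKM in siZBP1. Both siZBP1 samples lay below both siScr samples, and they differed from each other far less than the siScr samples did. The group means were 69.5 ± 11.6 and 33.6 ± 0.571 FPKM (SD, n = 2 each), 2.07-fold lower, with a limma log2 fold change of -1.02 (SE 0.118).

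Atf4, the central transcription factor of the response, was the most abundant of the 10 transcripts. It lies at chr15:80255184-80257541 on the plus strand. Its level was 167 and 144 FPKM in siScr and 96.4 and 102.7 FPKM in siZBP1. The groups were separate, with means of 155.8 ± 16.4 and 99.5 ± 4.45 FPKM (SD, n = 2 each). The ratio was 1.57-fold lower and the log2 fold change -0.64 (SE 0.0842), less than that of Ddit3. Atf3, a bZIP factor induced by ATF4 and by many other stress signals, lies at chr1:191170296-191218039 on the minus strand. It was at 62.6 and 56.0 FPKM in siScr and at 56.1 and 53.1 FPKM in siZBP1. The groups overlapped, since siScr replicate 2 was below siZBP1 replicate 1, and the log2 fold change was -0.11 (SE 0.0694). The 3 transcription factors thus had different differences, with Atf3 close to its siScr level.

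Trib3 and Chac1 are induced by ATF4 and CHOP together. Trib3, a pseudokinase that restrains ATF4 and AKT signalling, lies at chr2:152337422-152344032 on the minus strand. It was at 26.4 and 21.6 FPKM in siScr and at 9.47 and 8.33 FPKM in siZBP1. This was the largest difference of the 10 genes in the ratio of means, 2.69-fold lower (24.0 ± 3.41 and 8.90 ± 0.806 FPKM, SD, n = 2 each), with a log2 fold change of -1.33 (SE 0.119). Chac1, an enzyme that degrades glutathione, lies at chr2:119351229-119354381 on the plus strand. It was at 14.4 and 11.0 FPKM in siScr and at 7.30 and 7.60 FPKM in siZBP1. Its siScr samples lay further apart on the log2 scale than those of any other of the 10 genes, yet both stayed above the siZBP1 samples. The means were 12.7 ± 2.47 and 7.45 ± 0.211 FPKM (SD, n = 2 each), 1.70-fold lower, with a log2 fold change of -0.69 (SE 0.136).

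The 3 enzymes of amino acid synthesis were all lower. Asns, which makes asparagine from aspartate, lies at chr6:7675169-7693254 on the minus strand. It was at 78.4 and 67.4 FPKM in siScr and at 36.6 and 37.5 FPKM in siZBP1, 1.97-fold lower, with a log2 fold change of -0.95 (SE 0.0813). Phgdh and Psat1 catalyse the first and the second step of serine synthesis from glycolysis. Phgdh, at chr3:98313170-98339990 on the minus strand, was at 54.3 and 46.3 FPKM in siScr and at 23.6 and 22.6 FPKM in siZBP1. Psat1, at chr19:15904678-15947337 on the minus strand, was at 56.1 and 50.9 FPKM in siScr and at 21.0 and 21.9 FPKM in siZBP1. The samples of the groups were separate for all 3 enzymes, and Psat1 had the closest siScr samples of these. Phgdh was 2.18-fold lower (log2 fold change -1.09, SE 0.0874) and Psat1 2.49-fold lower (log2 fold change -1.28, SE 0.0642).

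Sesn2 and Slc7a11 were not lower. Sesn2, a leucine-binding inhibitor of mTORC1 that is also a p53 target, lies at chr4:132492032-132510501 on the minus strand. It was at 20.7 and 17.1 FPKM in siScr and at 20.6 and 21.9 FPKM in siZBP1, with overlapping groups and a log2 fold change of 0.16 (SE 0.101). Slc7a11, the cystine-glutamate exchanger that feeds glutathione synthesis and is also an NRF2 target, lies at chr3:49892526-50443614 on the minus strand. It was at 1.79 and 1.88 FPKM in siScr and at 2.14 and 1.95 FPKM in siZBP1. Both siZBP1 samples lay above both siScr samples, but the difference of 1.12-fold was small beside the low level, with a log2 fold change of 0.10 (SE 0.110).

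**Figure D1:**
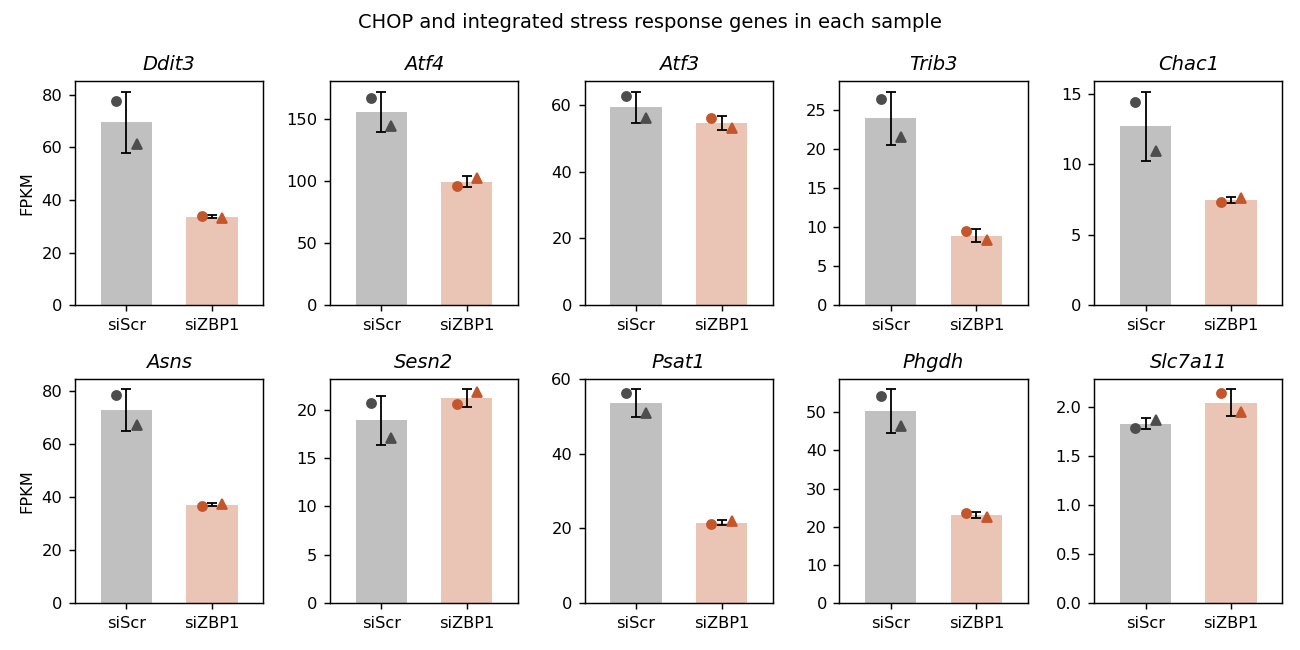
FPKM of the 10 genes (vertical axes, each from 0) in siScr and siZBP1 mBMSCs. Bars are means of 2 samples, error bars are SD, circles are replicate 1 and triangles replicate 2; for 7 genes both siZBP1 samples lie below both siScr samples, Atf3 and Sesn2 overlap, and Slc7a11 is slightly higher.

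Ddit3, Atf4, Trib3, Chac1, Asns, Psat1 and Phgdh, 7 of the 10, had both siZBP1 samples below both siScr samples, as did 33.7% of the 11959 genes with a mean of at least 1 FPKM. Slc7a11 alone had them above, as did 34.7% of these genes. The same 7 were over 1.5-fold lower by the ratio of means, against 8.73% of genes, and 0 were over 1.5-fold higher, against 4.24%. All 10 passed the filter on low values. Their median log2 fold change was -0.82, beside 0.0045 for all tested genes, and their FPKM summed to 560 and 478 in siScr and to 307 and 311 in siZBP1. These shares describe the contrast by which the genes had been chosen. Of the 5 genes with a C/EBP-ATF response element in the window shown above, Asns, Trib3 and Chac1 were over 1.5-fold lower while Atf3 and Slc7a11 were not. Of the 5 without it, Ddit3, Atf4, Psat1 and Phgdh were over 1.5-fold lower while Sesn2 was not.

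By FPKM, which compares genes per transcript length, the order of the mean levels in siScr was Atf4, Asns, Ddit3, Atf3, Psat1, Phgdh, Trib3, Sesn2, Chac1 and Slc7a11. The neighbours Asns and Ddit3, Ddit3 and Atf3, Atf3 and Psat1, and Psat1 and Phgdh overlapped between their siScr samples, while each other pair of neighbours did not. In siZBP1 the order was Atf4, Atf3, Asns, Ddit3, Phgdh, Psat1, Sesn2, Trib3, Chac1 and Slc7a11. Atf3 thus moved from rank 4 to rank 2 and Sesn2 from rank 8 to rank 7, with lower levels of the genes around them.

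The replicates of siScr were not alike for these genes, which is a measure the choice of genes did not use. In siScr, 9 of the 10 were lower in replicate 2 than in replicate 1, Slc7a11 being the exception, while 55% of all tested genes were. The median difference of log2(FPKM + 1), replicate 2 minus replicate 1, was -0.22 for the 10 genes and -0.017 for all tested genes, and 10.7% of tested genes lay below -0.2. The differences reached -0.37 for Chac1 and -0.34 for Ddit3. The siZBP1 replicates differed less, from -0.17 for Trib3 to 0.09 for Atf4. For the 7 genes that were over 1.5-fold lower, the difference between groups exceeded both differences between replicates. These 7 were picked by that group difference, so this is a description and no separate result. For Sesn2 the siScr replicates differed by -0.26, more than the groups did. Between the same siScr samples the mesenchymal markers differed by a median of -0.24 and the macrophage markers by 0.06, and the part of the cell composition in the replicate difference was not tested.

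**Figure D2:**
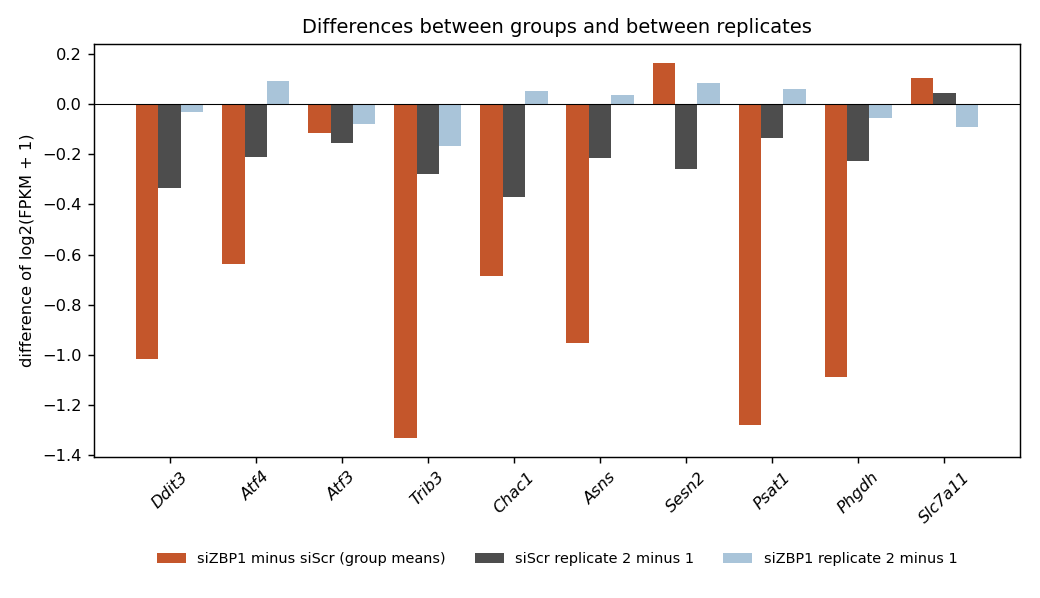
Differences of log2(FPKM + 1) for each of the 10 genes, on the vertical axis: the difference between the groups (orange), between the siScr replicates (dark grey) and between the siZBP1 replicates (light blue). The group difference is the longest bar for 7 genes and for Slc7a11, where it is 0.10, and is shorter than the siScr replicate difference for Atf3 and Sesn2.

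Genes with a profile like that of Ddit3 were ranked by the Euclidean distance between values of log2(FPKM + 1) centred over the 4 samples, among 6683 genes with a mean of at least 10 FPKM. The nearest were Igfbp5, an IGF-binding protein (distance 0.0424), Lamb2, a laminin chain (0.0477), Lmna, which encodes lamin A/C (0.0513), Rgs3, a regulator of G protein signalling (0.0535), and Aldh1l2, a mitochondrial folate enzyme (0.0566). Lmna, for example, was at 173 and 143 FPKM in siScr and at 78.4 in both siZBP1 samples. Among the other genes of the stress response, Phgdh ranked 11 and Asns 14, followed by Psat1 at 118, Trib3 at 145, Chac1 at 157 and Atf4 at 215. Atf3 ranked 1724 and Sesn2 4435. With 4 samples in 2 groups, closeness mainly reflects the size of the group difference and the difference between the siScr replicates.

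To see how the rest of the pathway behaved, 122 further genes in 10 lists were tested, of which 117 had a mean of at least 1 FPKM. These lists, and their grouping below, were set with earlier results of these data known. By limma at an adjusted p of 0.05, 45 fell, 22 rose and 50 did not pass the threshold, beside 14.8% and 13.5% of all tested genes. Of the 45 that fell, 29 were in 4 lists of amino acid metabolism, in which 39 genes were tested and 1, Got1, rose, with a median log2 fold change of -0.44. In the 6 other lists 16 of 78 tested genes fell and 21 rose, with a median of 0.0098. All 29 were lower with any 1 sample left out, but the number past the threshold then depended on the sample. It was 19 without siScr replicate 1, 27 without siScr replicate 2 and 0 without either siZBP1 replicate, when 28 and 29 of the 39 genes were lower at an unadjusted p under 0.05. Without a siZBP1 sample the spread comes from the siScr pair alone, and nearly all calls named below are then lost, as is that of Zbp1. Only Cdkn1a without either siZBP1 replicate and Ero1l without siZBP1 replicate 2 stayed past the limma threshold. In the same comparison the mesenchymal markers had a median log2 fold change of -0.46 and the macrophage markers one of 0.29, and their part in these differences was not tested.

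**Figure D3:**
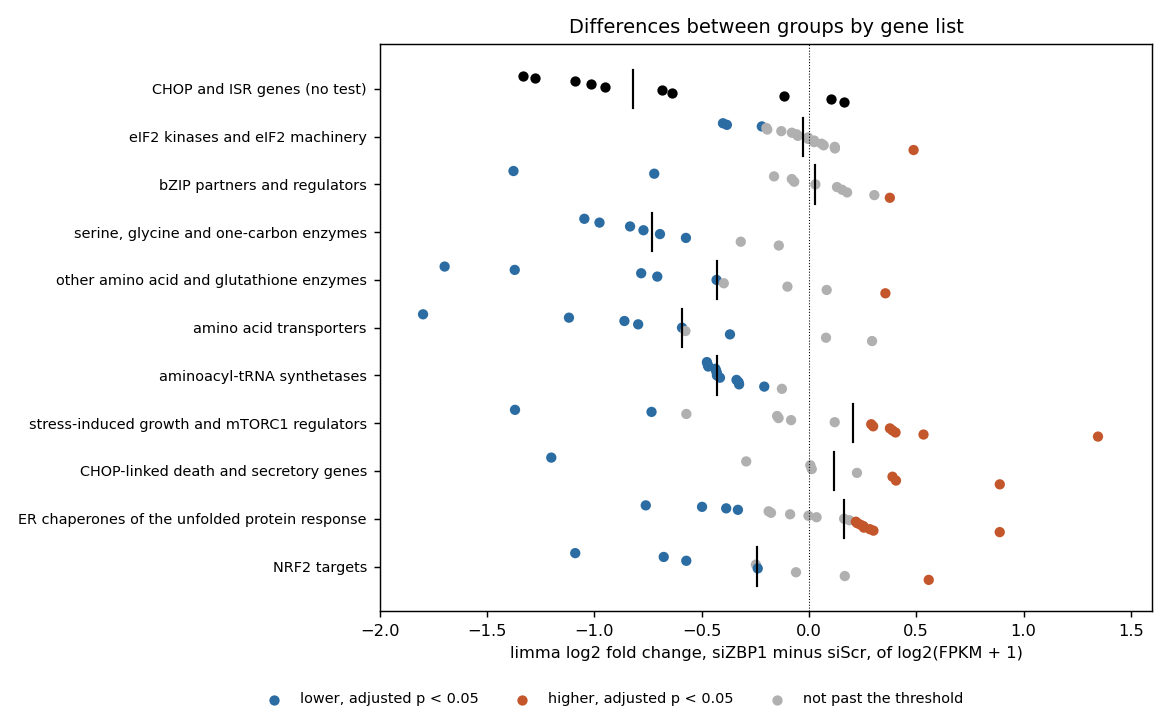
limma log2 fold change of log2(FPKM + 1), siZBP1 minus siScr (horizontal axis), for each gene of the 10 pathway lists, with the CHOP and stress response genes in black at the top, for which no test is given. Blue points fell, orange points rose and grey points did not pass an adjusted p of 0.05; vertical bars are list medians, which lie below -0.4 for the 4 amino acid lists.

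Transcripts of serine, glycine and one-carbon enzymes fell beside Phgdh and Psat1. Of 8 tested genes 6 fell, 0 rose by limma (0 also at an unadjusted p under 0.05), and all 8 had both siZBP1 samples below both siScr samples; the median log2 fold change was -0.73. Psph, the last enzyme of serine synthesis, was at 19.5 and 14.3 FPKM in siScr and at 9.11 and 9.65 FPKM in siZBP1, and fell by 0.77 on the log2 scale (SE 0.152, limma adjusted p = 0.0259). The mitochondrial folate enzymes fell as well. Aldh1l2 was at 23.0 and 18.2 FPKM in siScr and at 9.27 and 9.51 FPKM in siZBP1, a log2 fold change of -1.05 (SE 0.118, limma adjusted p = 0.00806). Mthfd1l was at 11.95 and 10.2 against 5.14 and 5.11 FPKM, a log2 fold change of -0.98 (SE 0.0950, limma adjusted p = 0.00604). Mthfd2 was at 51.2 and 48.4 against 25.9 and 29.2 FPKM, a log2 fold change of -0.83 (SE 0.0724, limma adjusted p = 0.00501). Mthfd1, a cytosolic enzyme of the same folate pathway, was named after its values were seen and did not pass, with a log2 fold change of -0.14 (limma adjusted p = 0.175).

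Among 9 tested enzymes of other amino acids and glutathione, 5 fell and 1 rose, with a median log2 fold change of -0.43. Without siScr replicate 1, 3 fell, with Ggt7 no longer past the threshold. Cth, which makes cysteine by transsulfuration, had the largest ratio of the pathway genes tested. It was at 6.39 and 5.36 FPKM in siScr and at 0.893 and 1.36 FPKM in siZBP1, 5.21-fold lower by the means, with a log2 fold change of -1.70 (SE 0.157, limma adjusted p = 0.00543) that the pseudocount of 1 makes smaller. Bcat1, the cytosolic transaminase of branched-chain amino acids, was at 13.2 and 11.0 FPKM in siScr and at 4.04 and 4.08 FPKM in siZBP1, 2.99-fold lower (log2 fold change -1.37, SE 0.106, limma adjusted p = 0.00413). Ggt7, of the gamma-glutamyltransferase family, fell by 0.78 (limma adjusted p = 0.0252) and Gpt2, the mitochondrial alanine transaminase, by 0.71 on the log2 scale (limma adjusted p = 0.00624). Got1, the cytosolic aspartate transaminase, was named after its values were seen. It rose from 31.5 and 30.1 to 40.2 and 39.3 FPKM, a log2 fold change of 0.36 (SE 0.0472, limma adjusted p = 0.0106).

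Several importers and exchangers of amino acids fell. Of 9 tested transporters 6 fell and 0 rose by limma (1 at an unadjusted p under 0.05), and the median difference was -0.59 on the log2 scale. Slc7a1, the importer of arginine and lysine, was at 17.3 and 14.8 FPKM in siScr and at 3.80 and 3.99 FPKM in siZBP1. It was 4.12-fold lower, a log2 fold change of -1.80 (SE 0.0949, limma adjusted p = 0.00264). Slc7a5, the light chain of the large neutral amino acid exchanger, was at 46.4 and 39.3 FPKM in siScr and at 19.5 and 18.8 FPKM in siZBP1, and fell by 1.12 on the log2 scale (SE 0.0896, limma adjusted p = 0.00442). Slc3a2, the heavy chain that Slc7a5 shares with Slc7a11, was named after its values were seen and fell by 0.37 (limma adjusted p = 0.0215). The glycine importer Slc6a9 fell by 0.86 (limma adjusted p = 0.0125) and the neutral amino acid exchanger Slc1a4 by 0.80 on the log2 scale (limma adjusted p = 0.00703). Slc7a5 thus fell, while for Slc7a11, of the same transporter family and at a mean of 1.94 FPKM, the small difference cannot be resolved.

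The cytosolic aminoacyl-tRNA synthetases, which charge tRNAs with amino acids, were lower by small amounts. Of 12 synthetases and the tRNA exporter Xpot, 12 fell and 0 rose by limma (0 also at an unadjusted p under 0.05), with log2 fold changes from -0.48 to -0.13 and a median of -0.43. All 13 had both siZBP1 samples below both siScr samples, as did 33.7% of all tested genes. Sars, for serine, was at 71.7 and 66.3 FPKM in siScr and at 48.8 and 49.8 FPKM in siZBP1 (log2 fold change -0.48, SE 0.0536, limma adjusted p = 0.00803). Aars, for alanine, fell by 0.47 (limma adjusted p = 0.0174), Tars, for threonine, by 0.47 (limma adjusted p = 0.00916) and Gars, for glycine, by 0.44 on the log2 scale (limma adjusted p = 0.00815). The exception was Mars, for methionine, named after its values were seen, at -0.13 (limma adjusted p = 0.104). The count of 12 was 5 without siScr replicate 1, 10 without siScr replicate 2 and 0 without either siZBP1 replicate, when 11 and 10 were lower at an unadjusted p under 0.05.

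**Figure D4:**
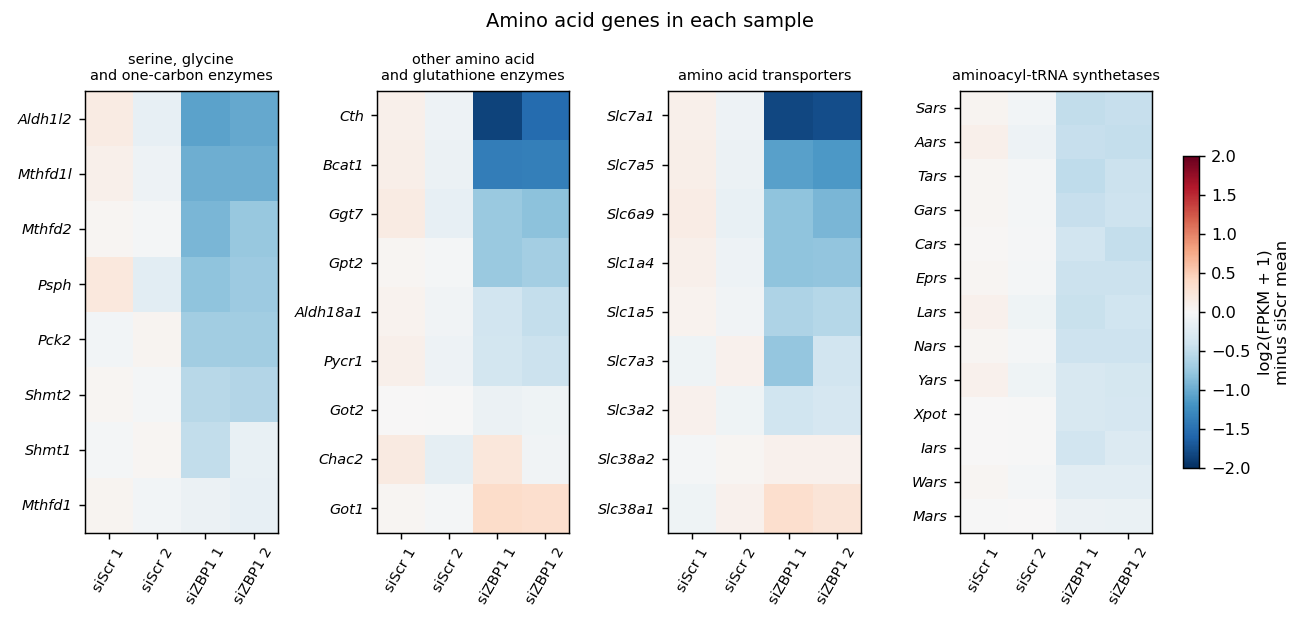
log2(FPKM + 1) minus the siScr mean for each tested gene of the 4 amino acid lists (rows) in each sample (columns), blue below and red above the siScr mean, with the colour scale from -2 to 2. The siZBP1 columns are blue for most genes, deepest for Slc7a1 and Cth and evenly pale for the synthetases, while Got1 and Slc38a1 are red, of which only Got1 passed the limma threshold.

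Of the 18 kinases and other genes of the eIF2 machinery upstream of Atf4, 3 fell and 1 rose, a share of falls near the 14.8% of all tested genes, with a median log2 fold change of -0.03. Without siScr replicate 1, 0 fell by limma and 2 were lower at an unadjusted p under 0.05. Eif2ak3, which encodes the ER stress kinase PERK, was at 9.61 and 9.94 FPKM in siScr and at 14.2 and 14.0 FPKM in siZBP1. It rose by 0.49 on the log2 scale (SE 0.0576, limma adjusted p = 0.00884), opposite in sign to Ddit3 and Atf4. The 3 other kinases, named after their values were seen, did not pass the limma threshold, with log2 fold changes of -0.13 for Eif2ak2 (adjusted p = 0.102), 0.06 for Eif2ak4 (adjusted p = 0.573) and -0.0046 for Eif2ak1 (adjusted p = 0.960). Eif2s2, the beta subunit of eIF2, fell by 0.38 (limma adjusted p = 0.0115). Of its exchange factor eIF2B, Eif2b3 fell by 0.40 (limma adjusted p = 0.0186) and Eif2b5 by 0.22 on the log2 scale (limma adjusted p = 0.0454). The Eif2b5 call was lost with all samples kept under 5 alternatives, with limma adjusted p from 0.0562 to 0.0725, among them the replicate block (0.0711). Ppp1r15a, which encodes the phosphatase subunit GADD34 that CHOP and ATF4 induce to reverse the response, was also named after its values were seen. It was at 12.2 and 11.7 FPKM in siScr and at 12.04 and 12.3 FPKM in siZBP1 (log2 fold change 0.02, limma adjusted p = 0.791).

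Among 11 bZIP partners and regulators of ATF4 and CHOP, 2 fell and 1 rose, beside 14.8% and 13.5% of all tested genes. The median log2 fold change of these 11 was 0.03. Atf5, a relative of ATF4 that is itself under translational control of the response, had a lower transcript level than Atf4 in every sample. It was at 138 and 119 FPKM in siScr and at 47.4 and 50.1 FPKM in siZBP1, 2.63-fold lower, a log2 fold change of -1.38 (SE 0.0817, limma adjusted p = 0.00286). Jdp2, a repressor of AP-1 and CRE sites, fell by 0.72 (SE 0.0770, limma adjusted p = 0.00711). Cebpb, a dimer partner of both ATF4 and CHOP, rose from 35.9 and 36.0 to 50.1 and 44.0 FPKM, a log2 fold change of 0.38 (SE 0.0729, limma adjusted p = 0.0250). Without siScr replicate 1 or 2 the limma adjusted p of Cebpb was 0.111 or 0.0988, and without siScr replicate 1 that of Jdp2 was 0.0511.

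Of 14 tested stress-induced regulators of growth and mTORC1, 2 fell, a share near the 14.8% of all tested genes. Another 7 rose, beside 13.5% of all tested genes, and the median log2 fold change of the 14 was 0.21. The 7 became 3 without either siScr replicate and 4 without a variance trend. Eif4ebp1, the translation repressor 4E-BP1 and a direct ATF4 target, was at 85.2 and 66.6 FPKM in siScr and at 28.2 and 28.9 FPKM in siZBP1 (2.66-fold lower, log2 fold change -1.37, SE 0.123, limma adjusted p = 0.00520). Gdf15, a stress cytokine induced by ATF4, CHOP and p53, fell from 34.2 and 32.1 to 19.3 and 19.8 FPKM, a log2 fold change of -0.73 (SE 0.0547, limma adjusted p = 0.00394). In contrast, Cdkn1a, the cyclin-dependent kinase inhibitor p21 and a p53 target, rose 2.55-fold, from 145.0 and 145.7 to 377.5 and 365.0 FPKM (log2 fold change 1.35, SE 0.0390, limma adjusted p = 0.00150). Sesn3, a relative of Sesn2, rose by a log2 fold change of 0.53 (SE 0.113, limma adjusted p = 0.0310). Its limma adjusted p was 0.0676 when siScr replicate 2 was left out.

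A list of genes tied to CHOP, cell death or protein secretion had 1 of 8 tested genes lower, near the 14.8% of all tested genes. In this list 3 were higher, beside 13.5% of all tested genes, and the median log2 fold change was 0.12. Ero1l, the ER oxidase that CHOP induces, was at 42.1 and 40.8 FPKM in siScr and at 16.9 and 18.0 FPKM in siZBP1, 2.37-fold lower (log2 fold change -1.20, SE 0.0532, limma adjusted p = 0.00223). Pmaip1, the BH3-only death gene NOXA and also a p53 target, rose 1.92-fold, from 12.4 and 12.9 to 23.5 and 25.2 FPKM (log2 fold change 0.89, SE 0.0614, limma adjusted p = 0.00343). Dnajc3, an ER co-chaperone known as P58IPK, and Txnip, an inhibitor of thioredoxin, rose by log2 fold changes of 0.41 (limma adjusted p = 0.00914) and 0.39 (limma adjusted p = 0.0202). The death genes Tnfrsf10b and Bcl2l11, named after their values were seen, did not pass the limma threshold, with log2 fold changes of 0.01 (adjusted p = 0.907) and 0.22 (adjusted p = 0.115).

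ER chaperones and related genes belong to the ATF6 and IRE1 branches of the unfolded protein response more than to ATF4. Of 19 such genes 4 were lower and 8 higher, beside 14.8% and 13.5% of all tested genes. The median log2 fold change of the list was 0.16. Without siScr replicate 1, 2 were lower and 1 higher, and without a variance trend 4 were lower and 4 higher. Hspa5, the chaperone BiP, was named after its values were seen, at 379 and 385 FPKM in siScr and 381 and 382 FPKM in siZBP1 (limma adjusted p = 0.974). Sdf2l1, an ER-resident chaperone cofactor, rose from 31.2 and 37.0 to 67.5 and 60.3 FPKM, a log2 fold change of 0.89 (SE 0.103, limma adjusted p = 0.00860). Pdia3, a disulfide isomerase for glycoproteins, fell from 350 and 361 to 205 and 214 FPKM, a log2 fold change of -0.76 (SE 0.0433, limma adjusted p = 0.00277). Dnajb9 fell by 0.50 (limma adjusted p = 0.0231) and Herpud1, which has an ATF4-responsive promoter, by 0.39 on the log2 scale (limma adjusted p = 0.0175), but neither passed without siScr replicate 1 (limma adjusted p = 0.0641 and 0.0706).

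NRF2 and its target genes, which share Slc7a11 with ATF4, had 4 of 8 genes lower and 1 higher, beside 14.8% and 13.5% of all tested genes. The median log2 fold change of the list was -0.24. With either siScr sample left out, 2 genes were lower, and Nqo1 was not among them (limma adjusted p = 0.0611 and 0.0541). Nfe2l2, which encodes NRF2, fell from 104.1 and 104.6 to 65.1 and 64.8 FPKM, a log2 fold change of -0.68 (SE 0.0365, limma adjusted p = 0.00264). Nqo1, a quinone reductase, was at 3.48 and 3.70 FPKM in siScr and at 1.42 and 0.927 FPKM in siZBP1 (log2 fold change -1.09, SE 0.150, limma adjusted p = 0.0114). Gclm, a subunit of the enzyme that begins glutathione synthesis, fell by 0.57 on the log2 scale (SE 0.0972, limma adjusted p = 0.0186). Hmox1, heme oxygenase 1, which macrophages express strongly, rose from 184.1 and 218.5 to 299.1 and 292.5 FPKM, a log2 fold change of 0.56 (SE 0.0891, limma adjusted p = 0.0161). Macrophage markers were higher in the same siZBP1 samples, and their part in the levels of Hmox1 was not tested.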

How the data were processed

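RNA-seq was measured in 4 mBMSC samples. The authors deposited FPKM per gene and sample from TruSeq libraries mapped with TopHat to mm10. The methods name HTSeq for the values, and the submitters' processing notes name TopHat and Cufflinks. The annotation and filters are not given in the sources used here. The deposited group means equal the replicate means and were not used further.

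A linear model with a variance trend and no covariate was fitted with limma 3.58.1 in R 4.3.3 to log2(FPKM + 1) of 11959 genes, those that averaged 1 FPKM or more over the samples. Fold changes are on that scale, which understates those of low genes. P-values were adjusted by Benjamini-Hochberg over all tested genes, two-sided, with a threshold of 0.05. Ratios of group means used FPKM. Read numbers are unknown, so no counting error is given. Positions came from GENCODE M21 and promoters from RefSeq, both GRCm38 (Python 3.11.15).

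The genes and lists were chosen with earlier results of these data known. Named were all 10 genes, Zbp1, per list up to 4 genes past the threshold with the largest log2 fold changes, and the 5 genes nearest to Ddit3. Alternatives were other pseudocounts, filters, scalings and variance models, a replicate block, omission of small RNA genes and omission of each sample.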

Additional observations from a re-analysis of the deposited data

How the results depend on the processing

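No log2 fold change of the 10 genes changed sign under the settings tried. That of Ddit3 ranged from -1.04 to -0.98 with all samples and from -1.19 to -0.85 with 1 sample left out. With 1 sample left out, genes lower by limma numbered 23 to 1297 (1766 with all samples) and genes higher 22 to 1019 (1618). In the 10 pathway lists 0 to 41 were lower and 1 to 16 higher, and in the 4 amino acid lists 0 to 27 were lower and 0 to 1 higher. The low ends came without a siZBP1 replicate, which leaves the siScr pair to give the spread and assumes that the lone sample varies like it. At an unadjusted p under 0.05, 43 and 47 genes of the 10 lists were then lower. Of the amino acid genes 2 in place of 1 rose with pseudocounts of 0.1 and 0.5, where genes had to average 5 FPKM, with quantile or median scaling and without small RNA genes. The added gene was in the transporter list, where Slc38a1 lay just above the threshold in the main fit (limma adjusted p = 0.0506). Of 40 genes named past the threshold, none reversed, and 313 of 317 values stayed past it with all samples, but only 65 of 80 did without a siScr sample and 3 of 80 without a siZBP1 sample. The 40 are those named by the rule above, without Got1 and Slc3a2, which were named after their values were seen. Genes over 1.5-fold with both means above 0 numbered 2249 lower and 1750 higher. They were 1035 and 503 among genes averaging 1 FPKM or more, and 867 and 365 after adding 1 to the means.

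Replicate numbers are shared between the groups in the labels. The deviations of equally numbered samples correlated at -0.063. This value cannot show whether such samples share an animal or a run, so pairing is not known. With the replicate number as a block, 1654 genes were lower and 1465 higher, 43 and 22 in the 10 lists and 28 and 1 in the amino acid lists. With 2 samples a group and no read numbers, small differences at low levels, such as that of Slc7a11, cannot be resolved.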
